A study of Mus musculus with 194 samples.

Results

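Gene expression in limbic cortex (LCtx, the medial prefrontal and cingulate cortex) was compared with that in amygdala (Amy) in mice given a single dose of cocaine. The comparison took the 16 acute libraries of these structures, 8 of LCtx and 8 of Amy, among the 194 libraries of the series, which covers 5 brain structures. A gene was called when its adjusted p in edgeR's quasi-likelihood test, with time as a covariate, was under 0.05 and its fold difference was over 1.2. Because LCtx and Amy were sequenced in different runs in the acute mice, only called genes whose difference had the same sign after repeated cocaine and after a cocaine challenge are described. These are termed shared-direction genes below. There were 2822 of them among 12147 genes tested and 19363 genes in the table.

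All mice were male C57BL/6OLAHSD, 6 to 7 weeks old on arrival, and all received cocaine at 20 mg/kg by intraperitoneal injection except those taken before a first dose. Acute mice were taken naive (0 hr) or 1, 2 or 4 hr after 1 dose. LCtx had 3, 2, 2 and 1 mice at these times and Amy had 2 at each. Repeated mice were taken after the last of 5 daily doses, or, as 0 hr mice, a day after the fourth, and gave 7 LCtx and 8 Amy libraries. Challenge mice were exposed again after 21 days of abstinence, with 0 hr mice taken abstinent, and gave 14 LCtx libraries from 13 mice and 16 Amy libraries from 15 mice. Tissue was cut by hand from coronal slices, so each library is a whole block with all its cell types and fibers. In such bulk samples, fewer cells of a type and less RNA per cell cannot be told apart. Mice are the replicates, and adjusted p-values refer to the spread between them.

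Structure and run could not be separated in the acute mice, in which LCtx was sequenced in run0250 and Amy in run0255. After repeated cocaine the runs were run0222 and run0255. Only the challenge libraries held both structures within a run, with 6 LCtx and 8 Amy libraries in run0006 and 8 of each in run0215. For the main gene lists, the counts that passed within both runs are therefore given beside the acute ones. The same libraries supplied the challenge sign used to select the genes, so these counts are not independent of that selection. Total counts in the acute libraries were 2868094 to 6606165 for LCtx and 2829509 to 5869650 for Amy. One acute LCtx library, 1 hr replicate 2, stood apart from the other 7. Its summed level of the thalamus marker list was 778 CPM (counts scaled to a common library size by TMM), against a group median of 171, and its striatal, ependymal and oligodendrocyte sums were also the highest of the group. Without it, the shared-direction genes numbered 1505 higher in LCtx and 1451 higher in Amy, against 1387 and 1435 with it.

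LCtx and Amy differ in plan. Cortex is a layered sheet built by the pallium, the dorsal part of the embryonic forebrain, and most of its neurons are glutamatergic. The amygdala joins a pallial part, the basolateral complex, to central and medial nuclei that derive in large part from the subpallium and adjoining hypothalamic territory and are rich in GABAergic and peptide neurons.

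LCtx and Amy differed widely. After acute cocaine 1909 genes were called higher in LCtx (15.7% of those tested) and 1875 higher in Amy (15.4%). Of these, 1387 higher in LCtx (11.4% of genes tested) and 1435 higher in Amy (11.8%) had the same direction after repeated cocaine and after challenge. Another 327 and 372 had a different direction in at least one of those treatments, and 195 and 68 were not tested in both. A fold difference over 2 was reached by 253 shared-direction genes higher in LCtx (2.08% of genes tested) and 330 higher in Amy (2.72%). The median log2 difference (LCtx minus Amy, here and throughout) over all genes tested was -0.012, 0.001 and -0.010 after acute cocaine, repeated cocaine and challenge.

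Most of the shared-direction genes also differed within a run. Their challenge sign, from these same libraries, was part of the selection, so agreement within the runs is not separate support. Among those higher in LCtx, 1277 kept the sign in both challenge runs and 923 had an adjusted p under 0.05 in both. For Amy these numbers were 1325 and 868. Of the genes with a fold over 2, 224 of 253 and 285 of 330 passed in both runs. Within run0006, 15.8% of 12118 genes tested were called higher in LCtx and 15.1% higher in Amy, and within run0215 17.3% and 17.5% of 11440. The size of the difference was not always held. The interaction of structure and treatment (acute against challenge) had an adjusted p under 0.05 for 410 of the genes higher in LCtx and 259 of those higher in Amy, beside 22.7% of the 12599 genes tested for it.

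**Figure D1:**
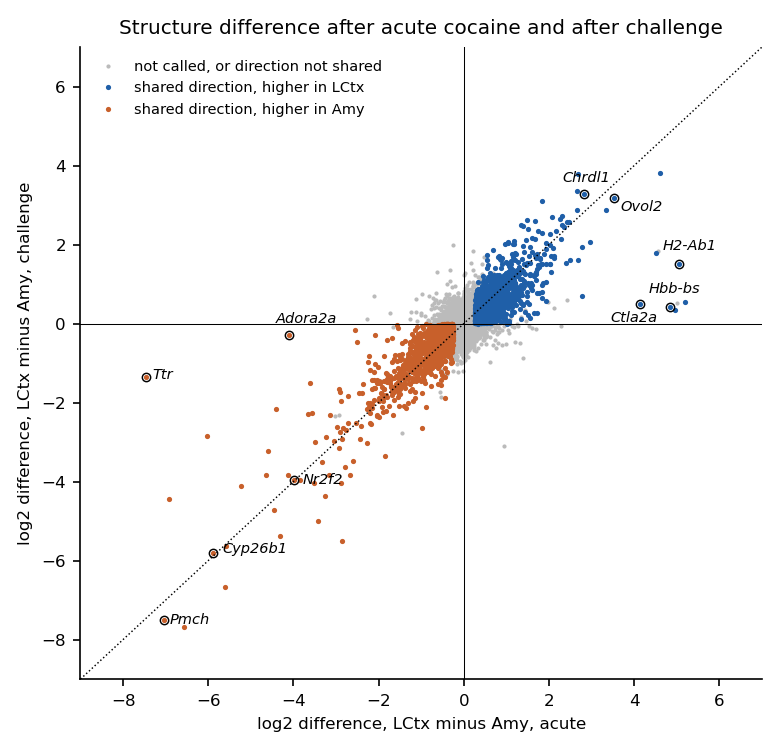
Log2 difference of LCtx minus Amy for each gene tested in both treatments, after acute cocaine (x axis) and after challenge (y axis). Blue and orange points are shared-direction genes, gray points are all others, and the dotted line marks equal differences. Ovol2, Cyp26b1, Nr2f2 and Pmch lie near that line, whereas Hbb-bs, Ctla2a and Adora2a lie near 0 on the y axis.

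Ovol2, a zinc finger transcription factor, was among the leading genes higher in LCtx. It was 11.5 to 18.7 CPM (median 14.8) in LCtx and 0.299 to 1.90 CPM (median 1.26) in Amy. The acute log2 difference was 3.52 (SE 0.23, adjusted p = 1.1e-12), and it was 3.50 after repeated cocaine and 3.19 after challenge. Its LCtx and Amy values did not overlap in the acute mice.

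Rbp4, Chrdl1 and Myoc, which encode secreted or carrier proteins, were also among the 15 leading genes. Rbp4, a retinol carrier found in layer 5 projection neurons, was 42.0 to 78.4 CPM (median 66.6) in LCtx and 7.47 to 13.6 CPM (median 9.13) in Amy, and differed by 2.67 (SE 0.13). Chrdl1, a secreted antagonist of bone morphogenetic proteins made by astrocytes, was 8.44 to 16.3 CPM (median 13.5) in LCtx and 1.15 to 3.09 CPM (median 1.59) in Amy, and differed by 2.82 (SE 0.21). Both genes kept similar differences in the other treatments, at 2.93 and 2.88 for Rbp4 and 3.37 and 3.28 for Chrdl1. Myoc, encoding the secreted glycoprotein myocilin, differed by 2.68 (SE 0.20), and it was 3.24 after repeated cocaine and 3.79 after challenge. Gm11549, an unnamed gene model, belonged to the same group of 15 leading genes.

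The other leading genes higher in LCtx include genes of red blood cells, platelets and immune cells. Hemoglobin genes Hba-a2, Hbb-bt and Hbb-bs had acute log2 differences of 5.18, 4.95 and 4.84. After challenge the same genes differed by only 0.55, 0.35 and 0.42. The blood list as a whole was high in all 8 acute LCtx libraries. Its summed level was 8806 to 14800 CPM in acute LCtx and 278.5 to 392 CPM in acute Amy, whereas in LCtx it was 352 to 664 CPM after repeated cocaine and 502 to 1277 CPM after challenge. In acute Amy, Slc4a1, Camp, Mmp8 and Ly6d of this list were at 0. Of 13 blood genes tested, 3 were shared-direction genes higher in LCtx. Of the other 10 called genes, 9 were not tested in both of the other treatments, so their direction was not compared, and Hba-a1 had another direction after repeated cocaine. H2-Ab1, a class II antigen-presenting chain, Pf4, a platelet chemokine, Lyz2, the lysozyme of myeloid cells, Lsp1, a leukocyte protein, and Arhgap25, a signaling regulator of blood cells, were also higher in LCtx. Their acute log2 differences were 5.06, 4.52, 2.77, 2.69 and 2.96, and their challenge differences were 1.51, 1.80, 0.69, 1.60 and 2.06. Ctla2a, a protease inhibitor listed here with endothelium, differed by 4.14 (SE 0.09), and it was 0.53 after repeated cocaine and 0.49 after challenge. All 9 of these genes passed in both challenge runs. After challenge the median blood sum was also higher in LCtx, at 578.5 CPM, than in Amy, at 428 CPM. The part of blood RNA in these 9 genes was not tested.

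Among the leading genes higher in Amy, Cyp26b1 and Nr2f2 were higher in Amy than in any other structure. Cyp26b1 encodes an enzyme that degrades retinoic acid. It was 103 to 149 CPM (median 133) in Amy and 0.255 to 4.51 CPM (median 2.09) in LCtx. The acute log2 difference was -5.88 (SE 0.14, adjusted p = 1.4e-22), and it was -5.98 after repeated cocaine and -5.82 after challenge. Nr2f2, the orphan nuclear receptor COUP-TFII, was 165 to 185 CPM (median 171) in Amy and 8.49 to 13.9 CPM (median 10.8) in LCtx. The acute log2 difference was -3.99 (SE 0.08, adjusted p = 7e-25), and within the 2 challenge runs the difference was -4.05 and -3.85. LCtx and Amy did not overlap in any of the 3 treatments for either gene.

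Several of the largest differences belonged to peptides of the hypothalamus. Pmch, the precursor of melanin-concentrating hormone, was 504 to 816 CPM (median 602) in Amy and 1.54 to 9.69 CPM (median 5.14) in LCtx. Hcrt, the precursor of the orexins, was 266 to 448 CPM (median 327) in Amy and 1.74 to 6.39 CPM (median 2.89) in LCtx. Their acute log2 differences were -7.05 and -6.57, and after challenge -7.51 and -7.69. Both lay far below lateral hypothalamus, where the acute medians were 7111 CPM and 5543 CPM. Avp (vasopressin), Oxt (oxytocin) and Gal (galanin) differed by -6.93, -6.02 and -5.61, and after challenge by -4.45, -2.84 and -6.67. All 3 also had their highest level in lateral hypothalamus. Without the LCtx library that stood apart, Gal differed by -6.32. What share of these transcripts came from hypothalamic tissue at the edge of the amygdala block was not tested.

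Other leading genes higher in Amy were Gpr101, Irs4, Agt and Arhgap36. Gpr101, an orphan G protein-coupled receptor, differed by -4.64 (SE 0.30), and Irs4, an insulin receptor substrate, differed by -4.13 (SE 0.38). Without the LCtx library that stood apart these differences were -5.70 and -5.47. Agt, angiotensinogen, a product of astrocytes, was 124 to 168 CPM (median 137) in Amy and 1.39 to 15.5 CPM (median 4.96) in LCtx, and differed by -4.59 (SE 0.17). Arhgap36, a GTPase-activating family member, differed by -4.45 (SE 0.24). All 4 passed in both challenge runs, and all 4 were higher in lateral hypothalamus than in Amy.

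Ttr and Adora2a differed far more in the acute mice than in the other treatments. Ttr, the transthyretin of choroid plexus, differed by -7.46 (SE 0.31), but after repeated cocaine by -0.90. In challenge LCtx it was 1.28 to 5.68 CPM in the 6 libraries of run0006 and 102 to 129 CPM in the 8 libraries of run0215. Amy held 91.9 to 410 CPM and 96.2 to 187 CPM in those runs, so the within-run differences were -5.26 and -0.34. Adora2a, an adenosine receptor of striatal projection neurons, differed by -4.11 (SE 0.27), but by 0.28 and -0.53 within the challenge runs.

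**Figure D2:**
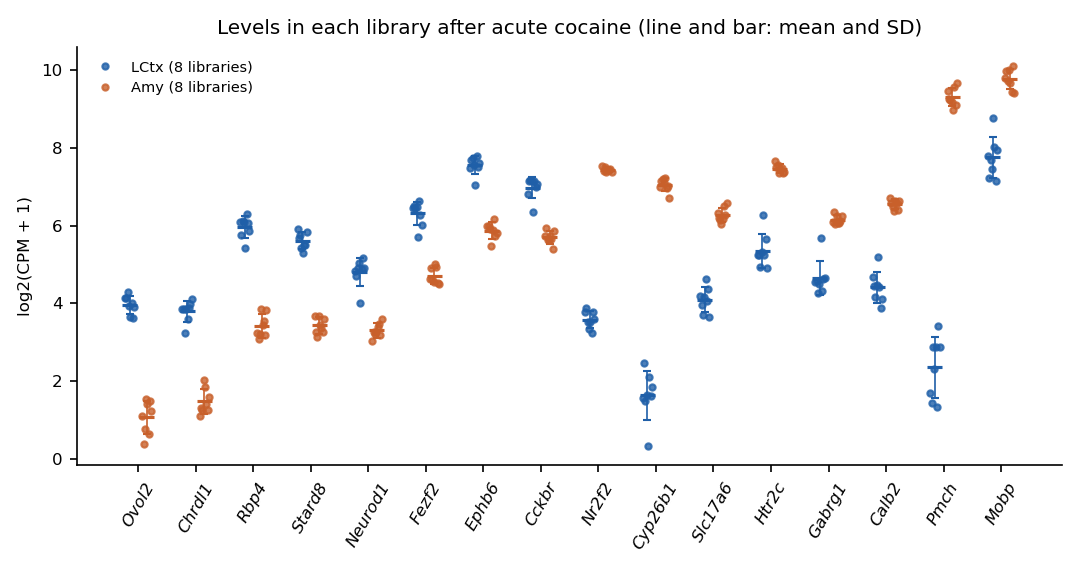
Levels of 16 genes in each acute library as log2(CPM + 1), with LCtx in blue and Amy in orange, and the mean and SD of 8 libraries as line and bar. The first 8 genes, from Ovol2 to Cckbr, are higher in LCtx and the other 8 higher in Amy, and in none of them do the 2 structures overlap. These 16 genes were picked for display. Other named genes, such as Nts and Ecel1, do overlap, and overlap was not counted over all genes tested.

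Pallial transcription factors largely favored LCtx. Of 20 tested, 15 were shared-direction genes higher in LCtx and 4 higher in Amy, beside 11.4% and 11.8% of all genes tested. Here and below, list members were chosen with earlier results of these data known, so list counts may partly reflect that choice. Over the pallial transcription factors list the median log2 difference was 0.87 after acute cocaine, 0.93 after repeated cocaine and 0.77 after challenge. All 19 passed within both challenge runs. Neurod1, a bHLH factor of glutamatergic neurons, differed by 1.66 (SE 0.14), Fezf2, which specifies corticofugal neurons, differed by 1.61 (SE 0.10), and Tbr1, a T-box factor of layer 6, differed by 1.58 (SE 0.08). For Fezf2 and Tbr1 the difference after challenge was 0.98 and 0.89. Besides Nr2f2, the clear exception was Lmo3, a LIM-only cofactor, at 219.5 to 274 CPM (median 252) in Amy and 65.2 to 113 CPM (median 94.4) in LCtx, which differed by -1.41 (SE 0.08). The other 2 factors higher in Amy, Nr2f1 and Sox5, are named because they lost their call when the LCtx library that stood apart was left out. Nr2f1, a relative of Nr2f2, went from -0.35 to -0.24, which is under the fold threshold, and Sox5, a SOX factor of deep-layer neurons, from -0.28 to -0.22 (adjusted p = 0.117 by edgeR).

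Among subpallial factors more genes were higher in Amy. Of 20 tested, 8 were shared-direction genes higher in Amy and 2 higher in LCtx. Of 5 further called genes, 4 were not tested in both of the other treatments, and Rarb had another direction there. Within both challenge runs 7 and 2 passed. As a group, genes of the subpallial transcription factors list had a median log2 difference of -1.23 after acute cocaine, -0.97 after repeated cocaine and -0.65 after challenge. The homeobox genes Six3 and Meis1 differed by -3.66 and -3.24, the zinc finger homeobox gene Zfhx3 by -2.04 and Dlx6, a regulator of GABAergic neurons, by -1.73. After challenge these 4 genes differed by -2.29, -2.88, -2.35 and -1.44. Six3 was 40.7 to 56.6 CPM (median 50.4) in Amy and 0 to 27.8 CPM (median 0.982) in LCtx, and its highest LCtx value came from the library that stood apart, without which it differed by -5.66. The exceptions were Foxp1, a forkhead factor, which differed by 0.89 (SE 0.09), and Zic1, a zinc finger factor, which differed by 1.70 (SE 0.36). Zic1 reached 325 CPM in the library that stood apart and differed by 0.99 without it. Foxp2, a forkhead factor of the hypothalamic and medial amygdala list and of layer 6, differed by -1.38 (SE 0.19). That list had only 5 members tested, of which 2 were shared-direction genes higher in Amy and 1 in LCtx.

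**Figure D3:**
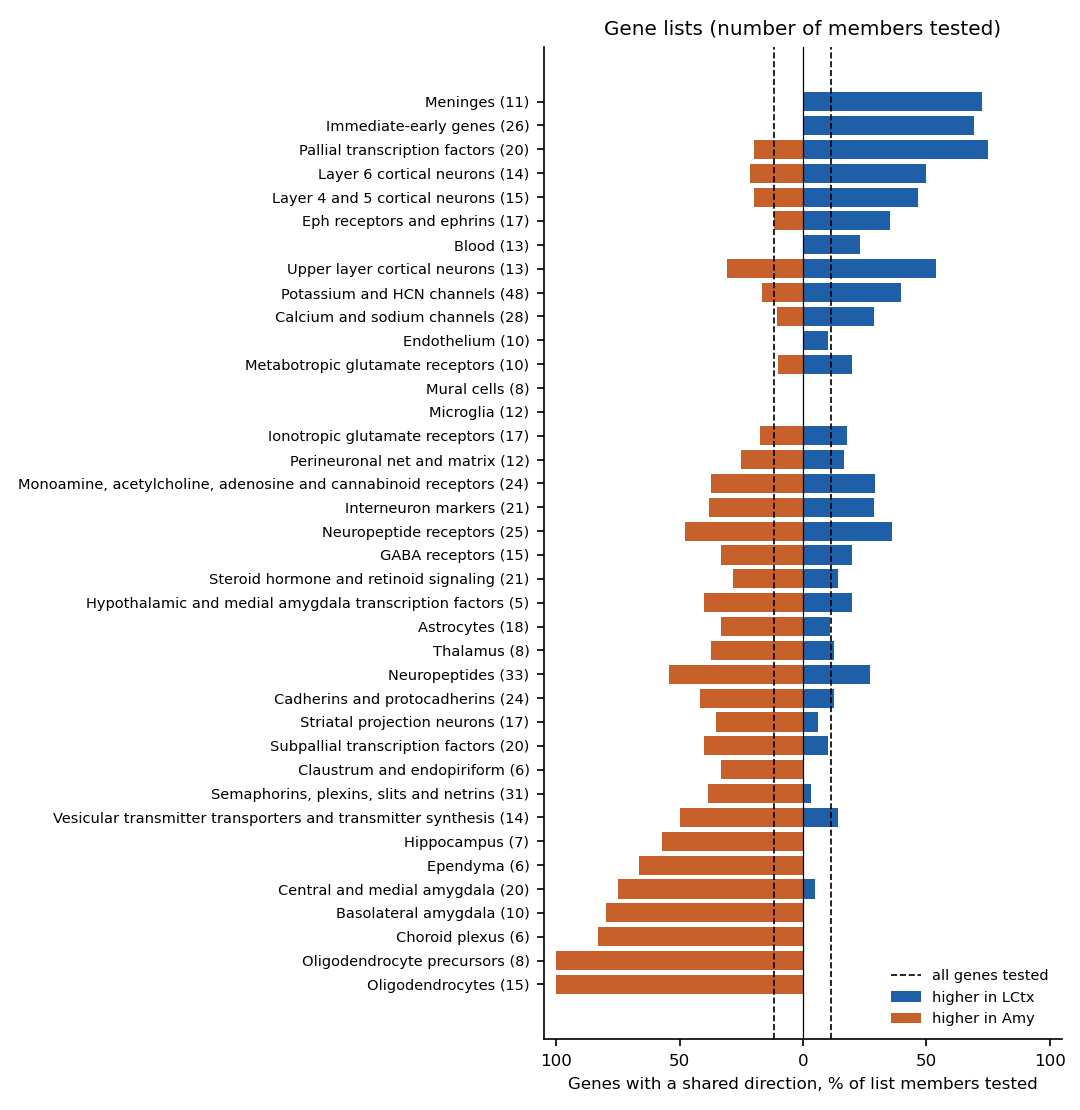
Share of the tested members of each gene list that were shared-direction genes higher in LCtx (blue, to the right) or higher in Amy (orange, to the left), with the number tested in parentheses. Dashed lines mark the shares over all genes tested, 11.4% and 11.8%. All members of the 2 oligodendrocyte lists are higher in Amy, and microglia and mural cells have none in either direction.

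Each of the 3 lists of cortical layers was split between the structures. Of the upper layer list, 7 of 13 genes tested were higher in LCtx and 4 in Amy, of the layer 4 and 5 list 7 and 3 of 15, and of the layer 6 list 7 and 3 of 14. Within both challenge runs 7 and 3, 5 and 2, and 4 and 2 of these passed. Stard8, a GTPase-activating protein, was 38.5 to 59.2 CPM (median 47.5) in LCtx and 7.79 to 11.9 CPM (median 9.59) in Amy, and differed by 2.28 (SE 0.10). Cux2, a homeobox factor of upper layers, differed by 1.04 (SE 0.08), and Lamp5, a membrane protein of upper layer and neurogliaform cells, differed by 0.93 (SE 0.09). In layer 5, Pou3f1, a POU factor, differed by 1.69 (SE 0.10) and Crym, a thyroid hormone-binding protein, by 1.2 and after challenge by 1.60. Sla, a Src-like adaptor, and Ctgf, a matrix protein of the deepest layer, differed by 2.02 and 1.61.

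Other genes of the layer lists were higher in Amy. Otof, the calcium sensor otoferlin, differed by -1.80 (SE 0.14), though by -0.41 after challenge. Wfs1, encoding the endoplasmic reticulum protein wolframin, was 323 to 393 CPM (median 337) in Amy and 149 to 205 CPM (median 172) in LCtx. It differed by -0.97 (SE 0.06). Tshz2, a teashirt zinc finger factor, differed by -1.07, Etv1, an ETS factor, by -0.53 and Nxph4, a neurexophilin of layer 6b, by -2.53. For Etv1 the challenge difference was -1.43.

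Markers of amygdala nuclei were higher in the Amy blocks, as the tissue label states. Of 10 basolateral genes tested, 8 were shared-direction genes higher in Amy and none in LCtx, and of 20 genes of the central and medial list 15 and 1. Over all genes tested, 11.8% were higher in Amy and 11.4% in LCtx. The 1 basolateral gene with an unadjusted p under 0.05 on the LCtx side, Rspo2, also had an adjusted p under 0.05 there, by edgeR and by DESeq2. Rspo2, named after its values were seen, differed by 0.43 after acute cocaine, 0.19 after repeated cocaine and -0.25 after challenge. The single central and medial gene higher in LCtx lost its call without Amy 4 hr replicate 2 or without LCtx 4 hr replicate 1. The median log2 difference of the basolateral amygdala list was -1.43 after acute cocaine, -0.99 after repeated cocaine and -1.24 after challenge. Over the central and medial amygdala list the median log2 difference was -1.68 after acute cocaine, -0.97 after repeated cocaine and -0.74 after challenge. Within both challenge runs 6 and 10 of those higher in Amy passed. Gpx3, a secreted glutathione peroxidase of the basolateral list, differed by -1.87 (SE 0.20). Nts, neurotensin, was 62.5 to 94.1 CPM (median 78.9) in Amy and 1.16 to 77.4 CPM (median 2.35) in LCtx, and Ecel1, an endopeptidase, was 74.0 to 100.1 CPM (median 87.3) and 2.51 to 86.6 CPM (median 4.84). Their acute differences were -3.05 and -2.77, and -5.16 and -4.14 without the LCtx library that stood apart, which gave the highest LCtx value of both. The basolateral list also holds Ppp1r1b (DARPP-32), a striatal gene as well, which differed by -1.57 (SE 0.13) but by only -0.02 after repeated cocaine and -0.03 after challenge.

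Transmitter genes separated the 2 vesicular glutamate transporters. Slc17a7, encoding VGLUT1 of cortical neurons, was 779 to 1496 CPM (median 1387) in LCtx and 422 to 690.4 CPM (median 632) in Amy. It differed by 1.12 (SE 0.10) and by 0.27 and 0.42 after repeated cocaine and challenge. Slc17a6, encoding VGLUT2 of hypothalamic and thalamic neurons, was 64.9 to 94.4 CPM (median 74.8) in Amy and 11.6 to 23.9 CPM (median 16.3) in LCtx, and differed by -2.20 (SE 0.12). GABAergic genes were higher in Amy. Slc32a1, the vesicular GABA transporter, differed by -1.30, and the GABA-synthesizing enzymes Gad2 and Gad1 by -1.39 and -0.71. In the LCtx library that stood apart Slc32a1, Gad2 and Gad1 were 459, 338.5 and 619 CPM, above the highest Amy library. After challenge they differed by -1.16, -1.16 and -0.86. In all, 7 of 14 transporter and synthesis genes were shared-direction genes higher in Amy and 2 higher in LCtx, and all 9 passed within both challenge runs.

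Glutamate receptor genes were called at shares near those of all genes tested, of which 11.4% were shared-direction genes higher in LCtx and 11.8% higher in Amy. Of 17 ionotropic glutamate receptor genes tested, 3 were shared-direction genes higher in LCtx and 3 in Amy, with small differences, and 2 and 3 of these passed within both challenge runs. Grik4, a kainate receptor subunit, and Grin2b, an NMDA receptor subunit, differed by 0.57 and 0.49. Gria1, an AMPA receptor subunit, and Grin3a, an NMDA receptor subunit, differed by -0.43 and -0.53. Of 10 genes of metabotropic receptors and their scaffolds 2 were higher in LCtx and 1 in Amy, the last being 0 without LCtx 4 hr replicate 1 and 2 without any of Amy 0 hr replicate 1, Amy 1 hr replicate 2, LCtx 0 hr replicate 1 or LCtx 1 hr replicate 1. The 2 higher in LCtx, but not the 1 in Amy, passed within both challenge runs. Among those higher in LCtx was Homer2, a postsynaptic scaffold, which differed by 1.01 (SE 0.09).

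GABA receptor subunits showed larger contrasts. Of 15 tested, 3 were shared-direction genes higher in LCtx and 5 higher in Amy, and 2 and 5 passed within both challenge runs. Gabrd, the delta subunit of extrasynaptic receptors, was 40.0 to 72.9 CPM (median 64.0) in LCtx and 21.7 to 38.8 CPM (median 29.7) in Amy, with a difference of 1.03 that was 2.06 after challenge. Gabrq and Gabre, the theta and epsilon subunits, were at most 2.04 and 1.78 CPM in LCtx and at least 12.04 and 5.28 CPM in Amy. They differed by -3.85 and -4.31, and Gabre by -5.41 without the LCtx library that stood apart. Gabrg1, the gamma-1 subunit, differed by -1.49 (SE 0.13) and Gabra2, the alpha-2 subunit, differed by -0.69 (SE 0.05). Gabrq and Gabre were highest in lateral hypothalamus, whereas Gabrg1 and Gabra2 were highest in Amy among the 5 structures.

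Interneuron markers were split between the structures. Of 21 tested, 6 were shared-direction genes higher in LCtx and 8 higher in Amy, and 5 of each passed within both challenge runs. Vip, the vasoactive intestinal peptide of a cortical interneuron class, was 38.7 to 84.1 CPM (median 68.5) in LCtx and 16.4 to 27.8 CPM (median 22.0) in Amy, and differed by 1.56 (SE 0.12). Cort (cortistatin), Ndnf and Reln (reelin), the last 2 being markers of superficial neurogliaform cells, differed by 1.16, 1.11 and 1.06. Calb2 (calretinin) was 82.8 to 105 CPM (median 94.9) in Amy and 13.8 to 35.7 CPM (median 20.7) in LCtx, and differed by -2.15 (SE 0.12). Chodl, a marker of long-range GABAergic neurons, differed by -2.94.

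Neuropeptide genes favored Amy. Of 33 tested, 18 were shared-direction genes higher in Amy and 9 higher in LCtx. As a group, genes of the neuropeptides list had a median log2 difference of -0.99 after acute cocaine, -0.57 after repeated cocaine and -0.29 after challenge. Within both challenge runs 14 of the genes higher in Amy and 7 of those higher in LCtx passed. Penk, proenkephalin, was 729 to 1113 CPM (median 975) in Amy and 49.9 to 256 CPM (median 60.4) in LCtx, and differed by -3.60, but by -1.55 and -1.52 after repeated cocaine and challenge. Striatal markers differed between the acute libraries as well, as given further on. Cbln2, a synaptic organizer, and Nppc, the C-type natriuretic peptide, were higher in LCtx, by 1.59 and 1.41.

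Neuropeptide receptors were more evenly split, with 9 of 25 higher in LCtx and 12 higher in Amy, of which 6 and 8 passed within both challenge runs. Npr3, a clearance receptor for natriuretic peptides, differed by 2.36 (SE 0.19), Rxfp1, the relaxin receptor, differed by 2.11 (SE 0.17) and Cckbr, the cholecystokinin B receptor, differed by 1.31 (SE 0.09). Cckbr was 80.5 to 144 CPM (median 137) in LCtx and 41.1 to 60.3 CPM (median 50.9) in Amy, with no overlap. In Amy the tachykinin receptors Tacr3 and Tacr1 differed by -3.17 and -2.92, the neuropeptide Y receptor Npy2r by -2.46 and the kappa opioid receptor Oprk1 by -2.03. After challenge these 4 genes differed by -3.84, -1.66, -1.75 and -2.31. Tacr3 differed by -4.24 without the LCtx library that stood apart.

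Monoamine and acetylcholine receptors split in the same manner. Of 24 receptors tested, 7 were shared-direction genes higher in LCtx and 9 higher in Amy, but only 6 and 3 passed within both challenge runs. Adra1b, the alpha-1B adrenergic receptor, was 37.7 to 67.4 CPM (median 60.4) in LCtx and 12.6 to 20.6 CPM (median 17.8) in Amy, and Chrm3, the M3 muscarinic receptor, was 47.9 to 76.7 CPM (median 65.7) and 17.2 to 29.2 CPM (median 22.7). They differed by 1.66 and 1.56. Htr2c, the serotonin 2C receptor, was 162 to 200.3 CPM (median 177) in Amy and 29.1 to 76.7 CPM (median 37.1) in LCtx, and differed by -2.11 (SE 0.11). Htr7, another serotonin receptor, differed by -1.64. Drd2, the dopamine D2 receptor, differed by -2.55, and by -3.56 without the LCtx library that stood apart, but by -0.44 and -0.18 after repeated cocaine and challenge.

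More ion channel genes were higher in LCtx than in Amy, but few reached a fold over 2. Of 48 potassium and HCN channel genes tested, 19 were shared-direction genes higher in LCtx and 8 higher in Amy, and 16 and 5 of these passed within both challenge runs. With a fold over 2 there were 1 and 2, beside 2.08% and 2.72% of all genes tested. Kcnh7, an ether-a-go-go-related channel, and the modifier subunits Kcnv1 and Kcns1 differed by 1.11, 0.96 and 0.91. Hcn4, a pacemaker channel, differed by -1.40, and Kcna5, a delayed rectifier, by -1.69 but by 0.03 within run0006. Of 28 calcium and sodium channel genes 8 were higher in LCtx and 3 in Amy, of which 5 and 3 passed within both runs and 0 and 3 had a fold over 2. The auxiliary subunits of this list were split between the structures, with Cacng3 at 0.80, Cacng5 at -1.59 and Cacng4 at -1.11.

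Families of adhesion and guidance molecules leaned in different directions. Among Eph receptors and ephrins, 6 of 17 were shared-direction genes higher in LCtx and 2 higher in Amy, and 5 and 2 passed within both challenge runs. Ephb6, a kinase-dead Eph receptor, was 131 to 222 CPM (median 193) in LCtx and 43.3 to 71.4 CPM (median 58.8) in Amy, and differed by 1.69 (SE 0.08). Ephb3 differed by 0.84 and the ligand Efnb3 by -0.88. Cadherins and protocadherins had 3 of 24 higher in LCtx and 10 higher in Amy, and semaphorins, plexins, slits and netrins 1 and 12 of 31. Within both challenge runs 2 and 9 of the former passed, and 1 and 9 of the latter. Cdh11 and Cdh13 were higher in LCtx, by 1.07 and 0.56, and Cdh9 and Pcdh20 in Amy, by -1.2 and -1.19. The single guidance gene higher in LCtx was Sema7a, a membrane-anchored semaphorin, which differed by 1.12 (SE 0.08). Without the LCtx library that stood apart there were 2 such genes. The netrin receptor Unc5d, the secreted repellent Sema3a and netrin-G1 (Ntng1) differed by -1.28, -1.18 and -1.16, and all 3 were highest in Amy among the 5 structures.

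Genes of steroid and retinoid signaling were split between the structures. The members higher in LCtx included Rbp4 at 2.67 and the retinaldehyde dehydrogenase Aldh1a2, a marker of meninges, at 1.84. Besides Cyp26b1, the genes higher in Amy were Crabp1, a cellular retinoic acid-binding protein, at -4.41, the receptor Rxrg at -2.38 and the dehydrogenase Aldh1a1 at -1.16. Crabp1 was 14.6 to 22.6 CPM (median 18.1) in Amy and 0 to 2.29 CPM (median 0.548) in LCtx. After challenge Crabp1 differed by -2.18. Of the 21 steroid and retinoid genes tested, 3 were shared-direction genes higher in LCtx and 6 higher in Amy, and 3 and 5 passed within both challenge runs. In the matrix list 2 of 12 were higher in LCtx and 3 in Amy, 1 and 3 of them within both runs. Ncan, the proteoglycan neurocan, differed by 0.46 (SE 0.07) and Tnc, the matrix protein tenascin-C, differed by -2.89 (SE 0.30).

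Immediate-early genes, which are transcribed within minutes of neuronal activity, were higher in LCtx. Of 26 tested, 18 were shared-direction genes higher in LCtx and none higher in Amy, and all 18 passed within both challenge runs. At an unadjusted p under 0.05, 19 were higher in LCtx and 0 in Amy, by edgeR and by DESeq2. The median log2 difference of the immediate-early genes list was 0.81 after acute cocaine, 0.66 after repeated cocaine and 0.61 after challenge. In the 0 hr mice alone, which had no cocaine, 17 were higher in LCtx and 1, Nr4a2, in Amy. Leaving out 1 library at a time gave 18 or 19 higher in LCtx and 0 or 1 in Amy, where Nr4a2 was called without Amy 2 hr replicate 2 or without LCtx 2 hr replicate 1. Nr4a1, an orphan nuclear receptor, was 90.5 to 188 CPM (median 119) in LCtx and 35.5 to 80.5 CPM (median 44.6) in Amy, and differed by 1.30 (SE 0.08). Klf2, a Krueppel-like factor also expressed by endothelium and blood cells, was 27.3 to 39.7 CPM (median 30.8) in LCtx and 5.77 to 13.9 CPM (median 9.51) in Amy, with a difference of 1.77 that was 0.77 after challenge. Egr2, a zinc finger factor, and Ier2, an early response factor, both differed by about as much, at 1.32 and 1.30.

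Fos, Arc and Egr1 were chosen for description after their values were seen, as the members of this list most used to mark active neurons. Arc was 88.7 to 329 CPM (median 163) in LCtx and 39.1 to 154 CPM (median 57.5) in Amy, Egr1 was 283 to 403 CPM (median 326) and 102 to 178 CPM (median 124), and Fos was 13.3 to 62.9 CPM (median 25.1) and 6.87 to 30.4 CPM (median 11.1). Their acute differences were 1.19, 1.29 and 0.94. At 1 hr Fos was 49.2 and 62.9 CPM in LCtx and 27.1 and 30.4 CPM in Amy, against 13.3, 14.2 and 29.3 CPM and 6.87 and 12.1 CPM at 0 hr. Fos was highest at 1 hr in both structures, with the LCtx libraries above the Amy libraries at that time. Egr1 in LCtx was 320 and 359.6 CPM at 1 hr, within or just above its 293 to 351 CPM at 0 hr, and its highest value, 403 CPM, came from a 2 hr library.

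**Figure D4:**
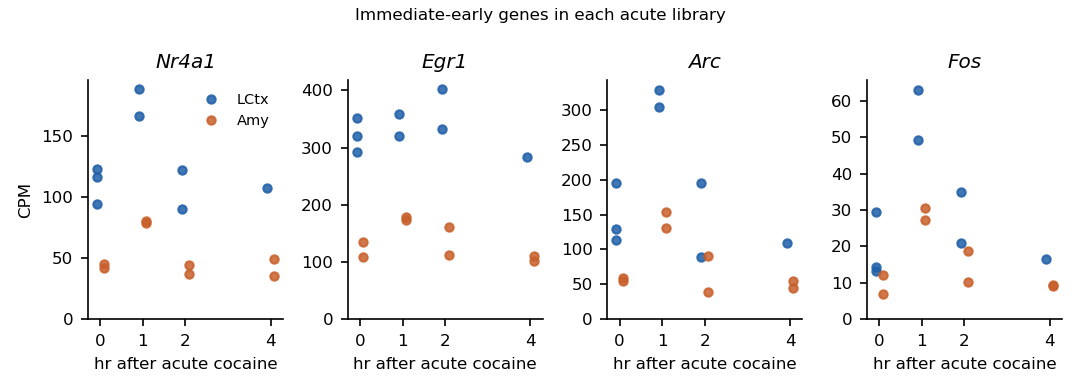
CPM of Nr4a1, Egr1, Arc and Fos (y axes from 0) in each acute library by time after cocaine, with LCtx in blue and Amy in orange. For Egr1 and Nr4a1 each LCtx library lies above each Amy library, whereas for Arc and Fos some LCtx libraries at 0, 2 and 4 hr lie below the Amy libraries at 1 hr.

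The promoters of 3 of these genes are shown because 18 of the 26 genes tested were higher in LCtx and because activity-regulated promoters are known for sites of the factor CREB. The motif searched was TGACG, the half-site of the cAMP response element, on both strands (CGTCA on the other), in the 250 bases before each start site in RefSeq (GRCm38.p6). It lay in 17.8% of 32851 promoters. In the immediate-early list, 19 of 29 promoters (65.5%, from 23 genes with an entry) held it. These matches describe letters only. Capitals below mark the motif on either strand, the sequences run 5′ to 3′ on the plus strand, on which all 3 genes lie, and annotated exons were left out. Nr4a1, on chromosome 15, was printed from chr15:101266596-101266845, Klf2 from chr8:72318812-72319032 and Fos from chr12:85473640-85473889.
Nr4a1: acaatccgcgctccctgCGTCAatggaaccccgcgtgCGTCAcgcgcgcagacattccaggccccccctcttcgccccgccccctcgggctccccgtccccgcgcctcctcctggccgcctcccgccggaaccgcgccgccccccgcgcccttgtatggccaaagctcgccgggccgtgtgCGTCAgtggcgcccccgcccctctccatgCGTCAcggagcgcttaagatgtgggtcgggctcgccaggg
Klf2: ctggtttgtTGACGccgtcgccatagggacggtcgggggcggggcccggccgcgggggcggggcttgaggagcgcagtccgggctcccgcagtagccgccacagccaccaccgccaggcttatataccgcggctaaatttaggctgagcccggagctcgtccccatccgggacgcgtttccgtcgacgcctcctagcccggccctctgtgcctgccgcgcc
Fos: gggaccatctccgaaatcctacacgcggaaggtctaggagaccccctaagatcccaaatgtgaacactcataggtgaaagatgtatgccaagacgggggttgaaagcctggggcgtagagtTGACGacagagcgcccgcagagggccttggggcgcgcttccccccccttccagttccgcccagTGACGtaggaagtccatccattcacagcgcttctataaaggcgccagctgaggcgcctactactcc

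Nr4a1 held 4 matches, the nearest starting 40 bases before the start site, Klf2 held 1 and Fos held 2. The motif was also present in 23.7% of the promoters of all shared-direction genes higher in LCtx and in 20.1% of those higher in Amy.

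Oligodendrocytes wrap axons in myelin, and their genes were higher in Amy. All 15 tested were shared-direction genes higher in Amy, and all 15 passed within both challenge runs. Over the oligodendrocytes list the median log2 difference was -1.54 after acute cocaine, -1.76 after repeated cocaine and -1.63 after challenge. Mobp, a myelin protein, was 679 to 1102 CPM (median 861) in Amy and 141 to 438 CPM (median 212) in LCtx, and differed by -1.95 (SE 0.15). Mal, another myelin protein, differed by -1.71. The 8 genes of precursors and early oligodendrocytes were also all higher in Amy, 6 of them within both runs, with Bcas1, Sox10 and Olig1 at -1.50, -1.04 and -0.88. In the LCtx library that stood apart the summed oligodendrocyte level was 4506 CPM, against 2302 CPM at the LCtx median and 5822 CPM in the lowest Amy library.

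Other non-neuronal lists differed in part. None of 12 microglial and none of 8 mural genes was a shared-direction gene in edgeR or DESeq2. At an unadjusted p under 0.05, 4 microglial genes (3 by DESeq2) and no mural gene were higher in Amy, 1 of them at an adjusted p under 0.05 with a fold under the threshold, and none of either list was higher in LCtx. After challenge, however, their median log2 differences were 0.29 for microglia and 0.58 for mural cells (0.47 and 0.57 within the 2 runs), and the summed mural level was 204 to 369.8 CPM in LCtx and 124 to 180.1 CPM in Amy, with no overlap. Of 18 astrocyte genes 2 were higher in LCtx and 6 in Amy, 2 and 3 of them within both runs. Of 11 meningeal genes 8 were higher in LCtx and none in Amy (10 and 0 at an unadjusted p under 0.05 by edgeR and by DESeq2), all 8 within both runs, with Slc22a6, an organic anion transporter, at 2.67, Col1a2, a collagen chain, at 2.08 and Slc6a13, a GABA and taurine transporter, at 1.67. Slc22a6 differed by 3.38 without Amy 2 hr replicate 1. The summed meningeal level was 1048 to 2433 CPM in acute LCtx and 964 to 1267 CPM in acute Amy. Among choroid plexus genes 5 of 6 were higher in Amy, 3 of them within both runs, including Prlr, the prolactin receptor, at -3.25 and at -5.26 without the LCtx library that stood apart.

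Markers of neighboring gray matter differed between the structures in the acute libraries, and those of hippocampus and thalamus in the other treatments too. After challenge the hippocampal sum was 275 to 359 CPM in LCtx and 424 to 630 CPM in Amy, and the thalamic sum 119.5 to 192 and 269 to 396 CPM. Some members of these lists, such as Wfs1, Zbtb20 and Calb2, are also in the amygdala lists. The striatal projection neuron list summed to 729 to 1538 CPM in acute LCtx and 1944 to 2835 CPM in acute Amy, but to 1225 to 1484 and 1442 to 2150 CPM after repeated cocaine and to 1265 to 1613 and 1340 to 2045 CPM after challenge. Of its 17 genes tested, 6 were shared-direction genes higher in Amy, 1 was higher in LCtx and 10 were called but had another direction in at least 1 of the other treatments. As a group, genes of the striatal projection neurons list had a median log2 difference of -1.11 after acute cocaine, 0.14 after repeated cocaine and 0.27 after challenge. Of the 6, only Penk passed within both challenge runs. In the hippocampal list 4 of 7 genes were higher in Amy, 3 of them within both runs, among them Spink8, a protease inhibitor of hippocampal pyramidal cells, which differed by -2.18 (SE 0.11). In the thalamic list 3 of 8 were higher in Amy and 1, Zic1, in LCtx, all 4 within both runs. Without the LCtx library that stood apart or without Amy 1 hr replicate 2, 5 were higher in Amy. The part of tissue from these neighbors in the differences was not tested.

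**Figure D5:**
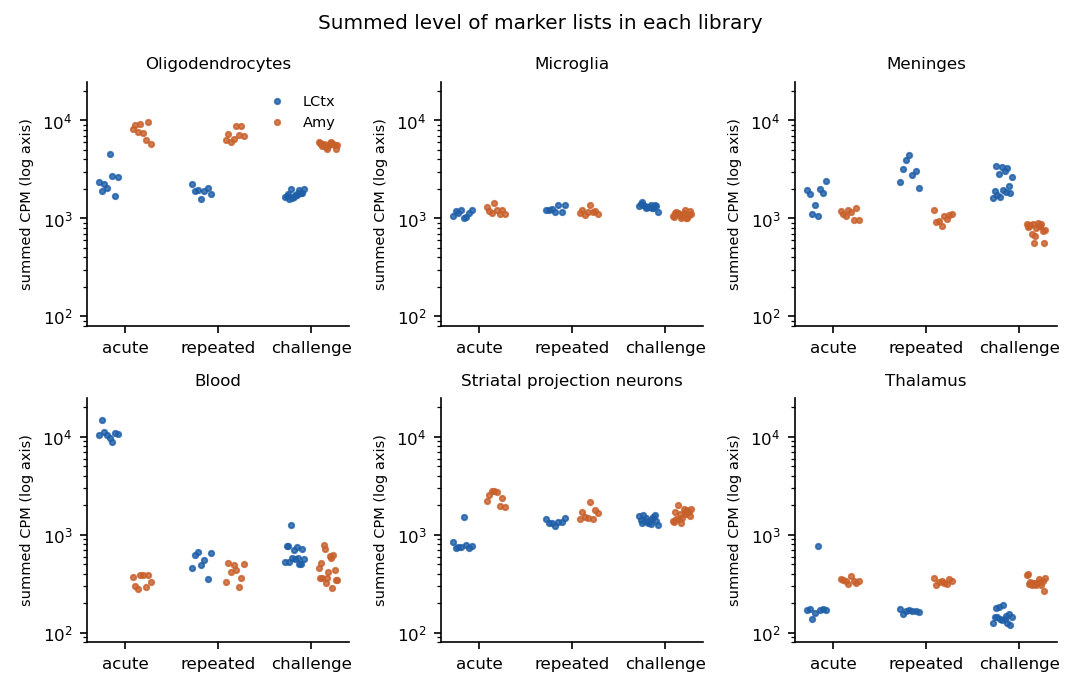
Summed CPM of 6 marker lists (log axis) in each library of LCtx (blue) and Amy (orange) by treatment. Oligodendrocyte sums separate the structures in each treatment, blood sums are high in the 8 acute LCtx libraries alone, and the thalamus panel shows 1 acute LCtx library at 778 CPM.

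Set among all 5 structures after acute cocaine, the 2 directions differed. Of the 253 shared-direction genes over 2-fold higher in LCtx, 218 (86.2%) had their highest mean in LCtx, 28 in dorsal striatum, 4 in lateral hypothalamus and 3 in nucleus accumbens. Of the 330 over 2-fold higher in Amy, 65 (19.7%) had their highest mean in Amy, 181 (54.8%) in lateral hypothalamus and 42 in each of the striatal structures. Among genes not called, 32.2% of those on the LCtx side were highest in LCtx and of those on the Amy side 16.2% were highest in Amy and 37.5% in lateral hypothalamus. Amy and lateral hypothalamus shared run0255 in the acute mice, whereas the other 3 structures were in other runs, so structure and run cannot be told apart where those are compared.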

How the data were processed

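The authors prepared 3′ RNA-seq libraries with unique molecular identifiers, aligned the reads with STAR to GRCm38, removed duplicates by identifier and counted reads per gene with HTSeq. The deposited file holds raw counts for 19363 genes in 194 libraries. The counting annotation is not given in the sources used here. Whether counting used strand is not given there either, so overlapping and antisense genes are uncertain, and hemoglobin and other near-identical copies may share reads. Counts of acute LCtx and Amy were filtered with filterByExpr, scaled by TMM and fitted in edgeR 4.0.16 (R 4.3.3) with structure and time as terms, with quasi-likelihood tests and Benjamini-Hochberg adjustment over all genes tested. Repeated and challenge libraries were fitted separately, and the challenge runs run0006 and run0215 also each alone. A mouse sequenced in both challenge runs entered with its run0215 library. CPM are counts scaled by TMM library size, and list sums are sums of these CPM.

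Named genes were the 15 shared-direction genes with the largest difference in each direction (mean of at least 10 CPM in the higher structure), up to 4 per list and direction, and 5 transmitter genes. Members and lists were chosen with earlier results of these data known. Acute libraries held 2829509 to 6606165 counts, which limits low genes most. Alternatives were RLE scaling, DESeq2 1.42.0, no filter, thinned counts, other fold and agreement rules, no time term, 0 hr mice only, the replicate block and leaving out each library. After repeated cocaine and challenge, and for 1 number in the acute mice, both structures carry shared numbers in the sample names, which may mark the same mouse, and the fits given treat them as separate samples. The fits were tested on simulated data. In the acute design (12147 genes), 97 of 100 genes changed by 1 on the log2 scale and 70 of 100 changed by 0.5 were called with the right sign, with 6 false calls. The simulated counts held no run effect and no library that stood apart, and the shared-direction rule was not applied. They give no error rate for the acute comparison, in which structure and run could not be separated. Promoter sequences were taken from RefSeq tables (GRCm38.p6). Some items that the rule names are not reported here.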

Additional observations from a re-analysis of the deposited data

Results flagged for a closer look

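Of 290 groups of 8 acute libraries, formed by a named gene or marker sum in one structure, 59 (20.3%) had a highest or lowest library far from the other 7. Chance flags about 1 in 20 groups. In acute LCtx 1 hr replicate 2, the library that stood apart, values far from the other 7 were Gal at 1.78 CPM, Gpr101 at 6.62 CPM, Agt at 15.5 CPM, Arhgap36 at 5.09 CPM, Irs4 at 4.58 CPM, Lsp1 at 20.1 CPM, Slc17a7 at 779 CPM, Slc32a1 at 459 CPM and Gad1 at 619 CPM. The same library held Gad2 at 338.5 CPM, Tbr1 at 83.3 CPM, Six3 at 27.8 CPM, Meis1 at 3.31 CPM, Zfhx3 at 14.01 CPM, Dlx6 at 45.1 CPM, Zic1 at 325 CPM, Foxp2 at 35.1 CPM and Gpx3 at 49.9 CPM. It also held Ppp1r1b at 178 CPM, Nts at 77.4 CPM, Ecel1 at 86.6 CPM, Drd2 at 25.7 CPM, Gabre at 1.78 CPM, Gabrg1 at 50.2 CPM, Penk at 256 CPM, Tacr3 at 5.60 CPM and Htr2c at 76.7 CPM. Further values of this library were Kcns1 at 14.3 CPM, Kcna5 at 14.3 CPM, Cacng5 at 21.4 CPM, Unc5d at 41.8 CPM, Rxrg at 20.4 CPM, Mobp at 438 CPM, Bcas1 at 67.5 CPM and Prlr at 10.2 CPM. Marker sums far from the rest in it were striatal projection neurons at 1538 CPM, thalamus at 778 CPM, oligodendrocytes at 4506 CPM and ependyma at 308 CPM. Acute LCtx 0 hr replicate 2 was highest in blood-related values, with Hba-a2 at 1552 CPM, H2-Ab1 at 65.96 CPM, Hbb-bt at 2190 CPM, Hbb-bs at 8353 CPM, Ctla2a at 294 CPM, Lyz2 at 124 CPM and the blood sum at 14800 CPM. The other such values were Arhgap36 at 24.5 CPM in Amy 0 hr replicate 2, Grik4 at 26.6 CPM in Amy 4 hr replicate 1, Cort at 22.4 CPM in Amy 4 hr replicate 2, Npr3 at 4.33 CPM in Amy 0 hr replicate 1, Rxfp1 at 6.66 CPM in Amy 1 hr replicate 2, Oprk1 at 27.6 CPM in Amy 2 hr replicate 2, Htr7 at 20.8 CPM in Amy 0 hr replicate 1, Kcnv1 at 47.5 CPM in Amy 0 hr replicate 2, Pcdh20 at 43.1 CPM in Amy 4 hr replicate 2, Sema7a at 49.5 CPM in Amy 4 hr replicate 2, Aldh1a1 at 20.1 CPM in LCtx 0 hr replicate 1, Slc22a6 at 3.46 CPM in Amy 2 hr replicate 1 and the claustrum and endopiriform sum at 588.5 CPM in Amy 4 hr replicate 2.

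For 51 of the 131 named genes (38.9%, beside 22.7% of all genes tested) the difference between LCtx and Amy was of another size after challenge than after acute cocaine, by the interaction term in edgeR at an adjusted p under 0.05. Named genes were mostly chosen for large acute differences, and the same acute values enter this term. A higher share and movement toward 0 can follow from that choice, so the 2 shares are not comparable. The values that follow are the challenge minus the acute log2 difference. Among genes higher in LCtx the difference fell toward 0 for Hba-a2 (-4.62), Hbb-bt (-4.59), Hbb-bs (-4.42), Ctla2a (-3.67), H2-Ab1 (-3.53), Pf4 (-2.73), Lyz2 (-2.07), Lsp1 (-1.08), Klf2 (-0.99), Arhgap25 (-0.90), Slc17a7 (-0.71), Tbr1 (-0.70), Fezf2 (-0.65), Kcnh7 (-0.62), Cdh11 (-0.59), Cbln2 (-0.52), Egr1 (-0.51), Nr4a1 (-0.51), Sema7a (-0.50), Adra1b (-0.47), Kcnv1 (-0.47) and Cacng3 (-0.26). Among genes higher in LCtx it grew for Myoc (1.2), Gabrd (1.04), Slc6a13 (0.95), Cdh13 (0.90), Col1a2 (0.64), Foxp1 (0.62), Grik4 (0.62), Crym (0.43) and Reln (0.37). Among genes higher in Amy it grew for Etv1 (-0.90) and Cdh9 (-0.76). Among genes higher in Amy the difference moved toward 0 for Ttr (6.06), Adora2a (3.75), Oxt (3.14), Avp (2.46), Drd2 (2.28), Crabp1 (2.23), Penk (1.97), Ppp1r1b (1.49), Otof (1.37), Kcna5 (1.34), Agt (1.33), Six3 (1.22), Tacr1 (1.21), Npy2r (0.75), Rxrg (0.62), Efnb3 (0.55), Calb2 (0.49) and Wfs1 (0.37). Acute libraries of the 2 structures were sequenced in different runs and challenge libraries within shared runs, so treatment and run cannot be told apart in these values.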

How the results depend on the processing

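The acute comparison gave 1387 shared-direction genes higher in LCtx and 1435 higher in Amy. A fold over 1.5 left 638 and 679, and a fold over 2 left 253 and 330, both being stricter by construction. In both ion channel lists, more genes with a fold over 2 were higher in Amy (2 and 3) than in LCtx (1 and 0). These counts are small, and 2.08% and 2.72% of all genes tested reached that fold in LCtx and Amy. Among interneuron markers more were then higher in LCtx (5 and 3, against 6 and 8). In the 0 hr mice alone, with fewer samples, 1061 and 952 were called, and requiring an adjusted p under 0.05 also after repeated cocaine and challenge gave 990 and 922. RLE scaling, DESeq2, no filter, no time term, no 4 hr mice and thinned counts gave 1299 to 1409 for LCtx and 1288 to 1496 for Amy. Leaving out 1 library at a time gave 1300 to 1505 and 1338 to 1451. Leaving out genes whose difference had another size after challenge, an alternative chosen after seeing the data, gave 977 and 1176. No named gene changed direction under the alternatives of the acute fit that gave it a value. Thinning gave none for Gabre, Aldh1a2 and Slc22a6. In the 0 hr mice alone Grik4 (0.49), Aldh1a2 (1.02) and Slc6a13 (0.75) missed the threshold.

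In the acute mice the replicate numbers join samples with different numbers in their names, so the fit with time point and replicate number as a replicate block (1357 genes higher in LCtx, 1374 in Amy) says nothing of pairing. Only LCtx 0 hr replicate 1 and Amy 0 hr replicate 2 share a number in their names, too few for a block. Without the former 1406 and 1389 genes were called, and without the latter 1368 and 1364. In the other treatments the block was the number in the sample names, which both structures share and which may mark the mouse. After repeated cocaine it gave 1789 and 1844 genes, against 1821 and 1871 without it, and after challenge 2007 and 2091, against 2065 and 2127. Deviations of same-numbered samples correlated at -0.086 to 0.119 in 6 repeated pairs and -0.007 to 0.181 in 13 challenge pairs, and the block moved neither treatment's counts by 1.5 times. The other alternatives moved the repeated and challenge counts by less than 1.5 times. In the acute and repeated mice structure and run cannot be told apart, and depth limits what could be called among low genes.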
